A study of Mus musculus with 8 samples.

Results

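Extracellular ATP and ADP are broken down to adenosine by enzymes on the cell surface. Here 8 genes of this route are described in cultures enriched for murine megakaryocytes (MKs), alone or together with mesenchymal stem cells (MSCs). The enzymes are Entpd1, Nt5e and Enpp1, the deaminase is Ada, the receptors are Adora2a, Adora2b and Adora3, and the transporter is Slc29a1. Members were taken by gene symbol for their role in this route, and all 8 were found among the 13387 genes of the count table. They were chosen by role with the fold changes of the same comparison already known, so these measured values were part of the selection and their differences between MKs cultured alone and MSC-MK cocultures are given as a description with no test. In short, the transporter Slc29a1 was 15.5-fold higher in coculture, Nt5e was 12.7-fold lower and Entpd1 was 6.85-fold lower. The receptor Adora2b was higher in every coculture library, whereas Enpp1, Ada, Adora2a and Adora3 overlapped between the groups.

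ATP and ADP leave activated, dying or secreting cells and act on P2 receptors. CD39, the product of Entpd1, cuts ATP and ADP to AMP, and CD73, the product of Nt5e, cuts AMP to adenosine. ENPP1 takes a parallel route, cutting ATP to AMP and pyrophosphate. Adenosine binds G protein-coupled receptors, of which the A2a and A2b receptors raise cAMP and the A3 receptor acts through an inhibitory G protein. The signal ends when the equilibrative transporter ENT1, the product of Slc29a1, lets adenosine cross the membrane, or when adenosine deaminase turns it into inosine. In platelets ADP promotes activation, whereas adenosine and cAMP oppose it. CD73 is also widely used as a surface marker of cultured MSCs.

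All cells came from bone marrow of wild-type C57BL/6 mice, and neither group carried a deletion or received an agent. In the first group (4 libraries), MKs were cultured alone for 18 hours, and in the second (4 libraries) they shared the culture with MSCs sorted as CD45-Ter119-CD31-CD51+CD140a+ cells. Each library pooled 5 wells, and MKs had been enriched with CD41 magnetic beads, so the cultures were not pure. The labels describe the sequenced cells as MKs freed of platelets, whereas the methods describe platelets made in the cultures. The labels do not give the age of the mice, which the methods describe as young adults. A figure legend of the study counts mice as the replicates, whereas the labels do not say which libraries came from separate animals. If they did not, the p-values below measure only the spread between these libraries.

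Libraries held 4939874 to 12523616 counts, and levels are given in CPM, which are counts per unit of library size after TMM scaling for composition. A floor of 3 counts was worth 0.284 to 0.662 CPM, depending on the library, and covers counting error only. Replicate 3 of the cocultures stood apart. It had 10735 genes with a count, against 13104 to 13193 in the other cocultures, and it had no count for 1012 genes that all 7 other libraries covered with 10 or more counts each. Adora2a was among the genes at 0, and 4 of the 8 members (Entpd1, Nt5e, Enpp1 and Adora2a) had 10 counts or fewer in this library. The log2 fold change of each member is therefore also given without it. Levels per length, receptor shares and profile distances include it unless stated. The 14 measured MK and platelet markers summed to 1906 to 2237 CPM in MKs cultured alone and 1736 to 2362 CPM in cocultures. Pf4, a platelet chemokine, was at 841 ± 210 and 1070 ± 362 CPM (SD, n = 4 each). Neutrophil markers summed to 84606 to 86382 and 4303 to 10218 CPM, above the MK and platelet markers in both groups. Levels are therefore those of each culture as sequenced and were not assigned to a cell type.

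The members are scattered over the genome, with Enpp1 and Adora2a on the same chromosome. In GENCODE vM21 on GRCm38, the assembly also named mm10, Entpd1 (ENSMUSG00000048120.16) occupies chr19:40612366-40741602 on the plus strand and Nt5e (ENSMUSG00000032420.8) chr9:88327197-88372092 on the plus strand. Enpp1 (ENSMUSG00000037370.13) occupies chr10:24637914-24712159 on the minus strand. Ada (ENSMUSG00000017697.3) occupies chr2:163726584-163750239 on the minus strand. The receptor genes are Adora2a (ENSMUSG00000020178.6) at chr10:75316877-75334784, Adora2b (ENSMUSG00000018500.2) at chr11:62248984-62266453 and Adora3 (ENSMUSG00000000562.5) at chr3:105870858-105908926, all on the plus strand. Slc29a1 (ENSMUSG00000023942.15) occupies chr17:45585200-45599606 on the minus strand. Adora3 overlaps the protein-coding gene Tmigd3 on the same strand and Slc29a1 overlaps the antisense gene Gm17080. Neither neighbour had a row in the table analysed, so reads from these overlaps cannot be assigned with certainty. Entpd1 also overlaps 2 processed pseudogenes and a sense-intronic gene without rows.

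To show the sequence in front of members whose levels did not overlap between the groups, the 250 bases upstream of the RefSeq start site (GRCm38.p6) are printed for Entpd1, Slc29a1 and Adora2b. The promoter table held 7 of the 8 members, without Adora2a, and the Nt5e window is not printed because all of its 250 bases lie in annotated exons. Windows run 5′ to 3′ on the strand of the gene, at chr19:40659520-40659769 (plus) for Entpd1, chr17:45599619-45599868 (minus) for Slc29a1 and chr11:62248734-62248983 (plus) for Adora2b. The Entpd1 window belongs to 1 of 2 start sites listed and lies inside the annotated span of the gene, outside its exons, and the Slc29a1 window belongs to 1 of 8 start sites listed. Capitals mark matches on either strand to 4 motifs chosen after the expression values were seen, namely the cAMP response element core TGACGT, the SP1 GC box GGGCGG, the hypoxia response element core ACGTG and the GATA box AGATAA.
Entpd1: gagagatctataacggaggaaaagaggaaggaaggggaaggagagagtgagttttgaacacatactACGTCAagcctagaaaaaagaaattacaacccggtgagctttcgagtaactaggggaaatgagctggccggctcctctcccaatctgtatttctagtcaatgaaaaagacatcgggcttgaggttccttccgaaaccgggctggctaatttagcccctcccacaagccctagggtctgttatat
Slc29a1: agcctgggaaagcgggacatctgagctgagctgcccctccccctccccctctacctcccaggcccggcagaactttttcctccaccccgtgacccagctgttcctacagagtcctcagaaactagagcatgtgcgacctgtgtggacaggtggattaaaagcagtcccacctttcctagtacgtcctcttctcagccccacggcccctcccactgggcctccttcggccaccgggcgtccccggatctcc
Adora2b: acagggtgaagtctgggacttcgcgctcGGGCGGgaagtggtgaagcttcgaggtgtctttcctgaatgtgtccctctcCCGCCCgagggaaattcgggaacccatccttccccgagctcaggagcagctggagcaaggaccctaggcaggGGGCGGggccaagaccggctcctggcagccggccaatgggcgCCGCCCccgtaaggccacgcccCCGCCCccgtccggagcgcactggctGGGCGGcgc
The Adora2b window held 6 GC boxes and 22 CpG dinucleotides at 69.6% GC. The Entpd1 window held 1 cAMP response element core (read on the opposite strand) and 8 CpG at 47.2% GC. The Slc29a1 window held 10 CpG at 62.4% GC, and none of these 4 strings of letters was in it. Among 32851 promoter windows of the same length, 32.7% held a GC box, 6.47% a cAMP response element core, 16.6% a hypoxia response element core and 9.99% a GATA box, with a median of 52.4% GC and 6 CpG. Of the windows not printed, that of Nt5e held 4 GC boxes at 72.0% GC, that of Ada held 1 GC box at 67.2% GC and that of Adora3 held no match and no CpG at 48.8% GC. The Enpp1 window (61.2% GC) held 1 GC box, and its hypoxia and cAMP motifs were overlapping letters of the same stretch. A match is a description of the letters and not evidence of binding.

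CD39 acts first on ATP and ADP, and its gene Entpd1 was 6.85-fold lower in coculture. In MKs cultured alone, replicates 1 to 4 had 31.8, 29.2, 32.5 and 31.2 CPM of Entpd1 (144, 283, 293 and 192 counts). In the cocultures they had 7.01, 6.64, 0.209 and 4.34 CPM (74, 51, 2 and 25 counts). All coculture libraries lay below all libraries of MKs cultured alone, and replicate 3 was the lowest, with fewer counts than the floor of 3. The means were 31.2 ± 1.43 and 4.55 ± 3.13 CPM (SD, n = 4 each), and the log2 fold change was -2.77 (SE 0.80). Without coculture replicate 3 the coculture mean was 6.00 ± 1.45 CPM (n = 3), the level was 5.20-fold lower and the log2 fold change was -2.37 (SE 0.24).

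CD73 completes the route to adenosine, and its gene Nt5e had the widest gap of the 3 member enzymes that act on nucleotides. Nt5e measured 76.8, 62.3, 87.8 and 80.0 CPM in MKs cultured alone (348, 604, 792 and 492 counts) and 9.67, 8.08, 1.05 and 5.38 CPM in cocultures (102, 62, 10 and 31 counts). The groups did not overlap, and the lowest library of MKs cultured alone was far above the highest coculture. Means were 76.7 ± 10.7 and 6.04 ± 3.77 CPM, a 12.7-fold lower level with a log2 fold change of -3.66 (SE 0.60). Leaving out coculture replicate 3 gave 7.71 ± 2.17 CPM, 9.96-fold lower, and -3.31 (SE 0.24). Nt5e stands on the MSC marker list used here, of which 7 others rose, as given further on.

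ENPP1, which makes AMP and pyrophosphate from ATP, did not follow the CD39 and CD73 genes. Enpp1 had 10.2, 14.5, 8.43 and 7.65 CPM in MKs cultured alone (46, 141, 76 and 47 counts) and 19.2, 14.1, 0.105 and 20.3 CPM in cocultures (203, 108, 1 and 117 counts). The groups overlapped with and without coculture replicate 3, which held a single count. The log2 fold change was 0.39 (SE 0.99) with all 8 libraries and 0.78 (SE 0.27) without that replicate, where the coculture mean was 17.9 ± 3.33 CPM against 10.2 ± 3.08 CPM.

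**Figure D1:**
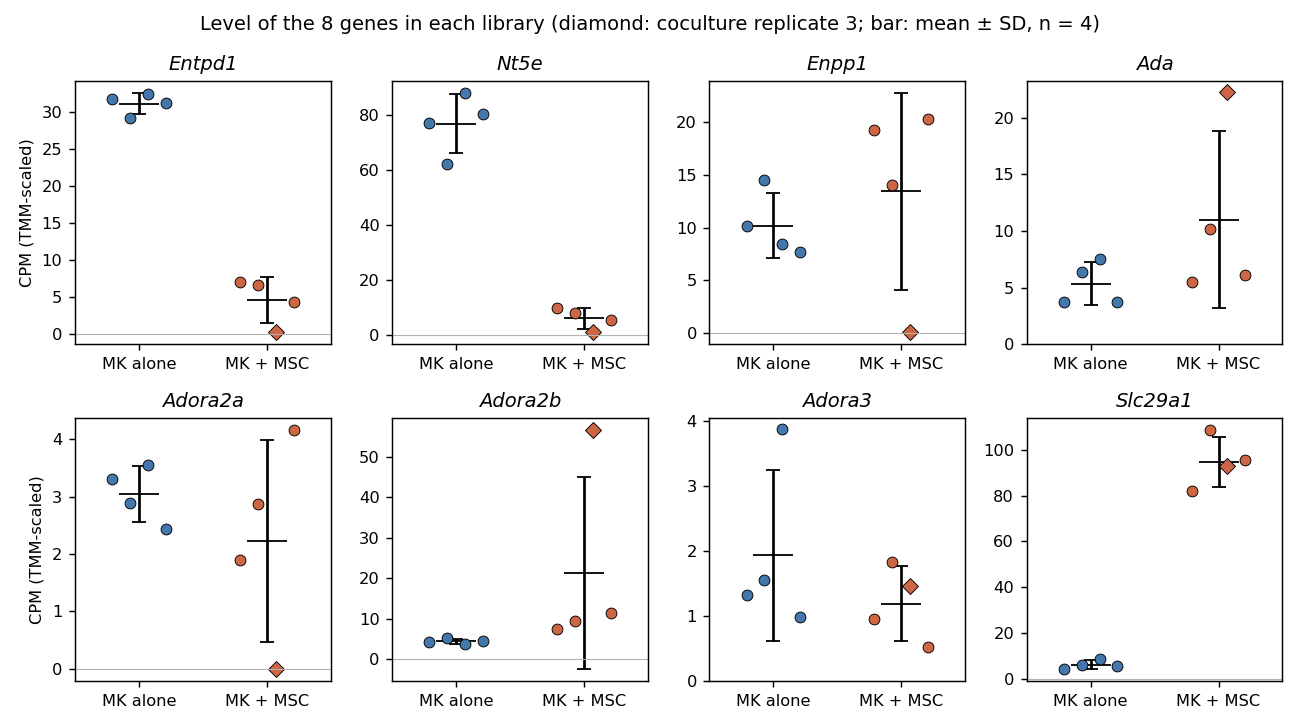
Level of each of the 8 genes in CPM (TMM-scaled) in 4 libraries of MKs cultured alone (blue) and 4 MSC-MK cocultures (orange), with 1 point per library, a diamond for coculture replicate 3 and bars for the mean ± SD. Entpd1 and Nt5e lie lower and Slc29a1 lies higher in every coculture, from 82.2 to 109 CPM against 4.19 to 8.65, whereas the wide bars of Ada and Adora2b come from the diamond.

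Adenosine deaminase removes adenosine by turning it into inosine, and the 2 groups overlapped for its gene Ada. MKs cultured alone had 3.75, 6.39, 7.54 and 3.74 CPM of Ada (17, 62, 68 and 23 counts), and cocultures had 5.50, 10.2, 22.3 and 6.07 CPM (58, 78, 213 and 35 counts). The highest value was coculture replicate 3, and the remaining cocultures overlapped with MKs cultured alone. The ratio of the means was 2.05 with all libraries and 1.35 without that replicate, with log2 fold changes of 1.03 (SE 0.62) and 0.39 (SE 0.36).

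ENT1, which carries adenosine across the plasma membrane in either direction, had the widest fold difference of the 8. Slc29a1 had 4.19, 5.98, 8.65 and 5.69 CPM in MKs cultured alone (19, 58, 78 and 35 counts). The cocultures had 82.2, 109, 92.9 and 95.6 CPM (867, 836, 888 and 551 counts). Every coculture was above every library of MKs cultured alone, and here replicate 3 lay within the range of the other cocultures. Means were 6.13 ± 1.85 and 94.9 ± 11.0 CPM, 15.5-fold higher (15.6-fold without replicate 3), and the log2 fold change was 3.94 (SE 0.31). It ran from 3.79 to 4.14 when any 1 of the 8 libraries was left out.

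Among the genes for adenosine receptors, only Adora2b had groups that did not overlap. The A2b receptor gene measured 4.19, 5.36, 3.77 and 4.56 CPM in MKs cultured alone (19, 52, 34 and 28 counts) and 7.58, 9.51, 56.7 and 11.4 CPM in cocultures (80, 73, 542 and 66 counts). Coculture replicate 3 was far above the others. The means of 4.47 ± 0.674 and 21.3 ± 23.7 CPM gave a 4.77-fold higher level and a log2 fold change of 2.25 (SE 0.73). Without that replicate the coculture mean was 9.51 ± 1.93 CPM, the level was 2.13-fold higher and the log2 fold change was 1.05 (SE 0.31), so this library set the size of the difference and not its direction.

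The A2a receptor is the adenosine receptor best known for restraining platelets, and its gene was at a few CPM in both groups. Adora2a had 3.31, 2.89, 3.55 and 2.44 CPM in MKs cultured alone (15, 28, 32 and 15 counts) and 1.90, 2.87, 0 and 4.16 CPM in cocultures (20, 22, 0 and 24 counts). By counting error alone, the count of 0 in coculture replicate 3 allows a level up to its floor of 0.314 CPM. Adora2a is among the 1012 genes at 0 there that every other library covered, so this floor is no firm upper limit. The groups overlapped, and the log2 fold change was -0.46 (SE 0.99), or -0.08 (SE 0.43) without that replicate. The gene for the A3 receptor, Adora3, did not pass the filter on low counts. It had 1.32, 1.55, 3.88 and 0.976 CPM in MKs cultured alone (6, 15, 35 and 6 counts) and 0.948, 1.82, 1.46 and 0.520 CPM in cocultures (10, 14, 14 and 3 counts). These values overlapped, and a fit with no filter gave a log2 fold change of -0.72 (SE 0.75). Adora3 passed the filter without coculture replicate 3, where its log2 fold change was -0.85 (SE 0.61).

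Of the 8 members, 7 passed the filter on low counts and entered the fit of 11722 genes. At the cutoffs used for all genes (a fold change of at least 2, an adjusted p of at most 0.05 from edgeR's quasi-likelihood test and a group mean of 1 CPM or more), Slc29a1 was past them as higher, where 13.2% of the genes tested were, and Entpd1 and Nt5e were past them as lower, where 7.31% were. Levels did not overlap between the groups for Slc29a1 and Adora2b as higher (19.3% of the genes tested) and for Entpd1 and Nt5e as lower (21.1%). Nothing is read from these shares, because the same contrast chose the members. Slc29a1 and Nt5e kept their side of the cutoffs under every alternative run. Entpd1 kept it without coculture replicate 3 but lost it when any 1 of the other 7 libraries was left out. It also lost it with a block for replicate number, with scaling by library size only and with scaling to MK and platelet markers. Adora2b was past the cutoffs without coculture replicate 3, where 20.6% of 12267 genes were called higher, without coculture replicate 1, and under the same 2 scalings.

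**Figure D2:**
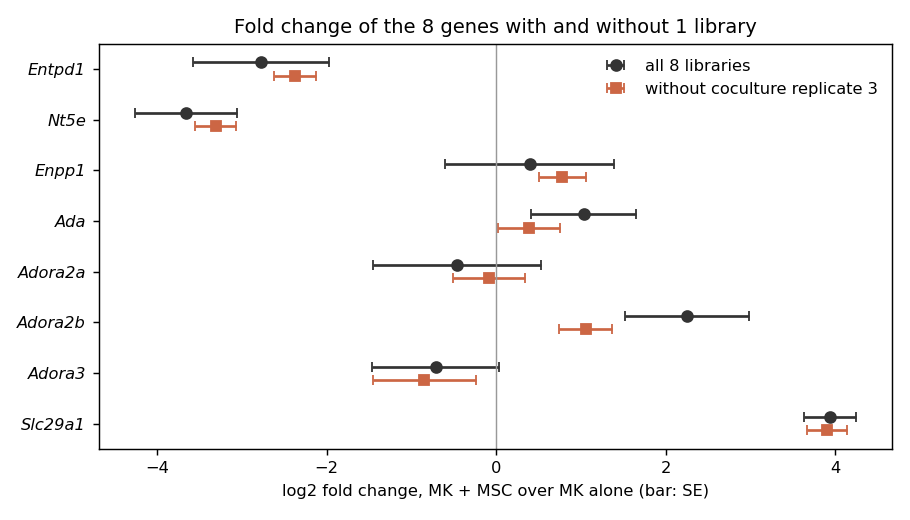
Log2 fold change of each member, MSC-MK coculture over MKs cultured alone, with its SE, from all 8 libraries (black) and without coculture replicate 3 (orange). The values of Slc29a1 (3.94 and 3.91) nearly coincide, and those of Adora2b move from 2.25 to 1.05. The bars of Enpp1, Adora2a and Adora3 from all libraries cross 0. The black point of Adora3 comes from the fit with no filter on low counts.

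Set on a scale per length (CPM per kb of annotated exon), the order of the members turned over between the groups. In MKs cultured alone Nt5e was the highest at 8.92 ± 1.24 CPM per kb, followed by Entpd1 at 5.59 ± 0.256 and Ada at 2.68 ± 0.957, and none of these neighbours overlapped. Adora2b (2.42 ± 0.366), Slc29a1 (1.53 ± 0.463), Adora2a (0.995 ± 0.159), Enpp1 (0.993 ± 0.300) and Adora3 (0.518 ± 0.354) followed, and each of these overlapped with the gene before it. In cocultures Slc29a1 led at 23.7 ± 2.74 CPM per kb, ahead of Adora2b at 11.6 ± 12.8 and Ada at 5.50 ± 3.90. Enpp1 (1.31 ± 0.906), Entpd1 (0.816 ± 0.560), Adora2a (0.729 ± 0.573), Nt5e (0.702 ± 0.438) and Adora3 (0.319 ± 0.154) followed. With all cocultures counted, the step from Ada to Enpp1 was the one without overlap between neighbours. Without coculture replicate 3, Slc29a1 (20.5 to 27.2 CPM per kb) also lay clear of Adora2b (4.11 to 6.21). Enpp1 (1.37 to 1.98) then lay clear of Entpd1 (0.777 to 1.26) as well. With the longest transcript as the length, Slc29a1 and Adora2b changed places in MKs cultured alone, as did Enpp1 and Adora2a, and in cocultures Nt5e moved from rank 7 to rank 5.

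**Figure D3:**
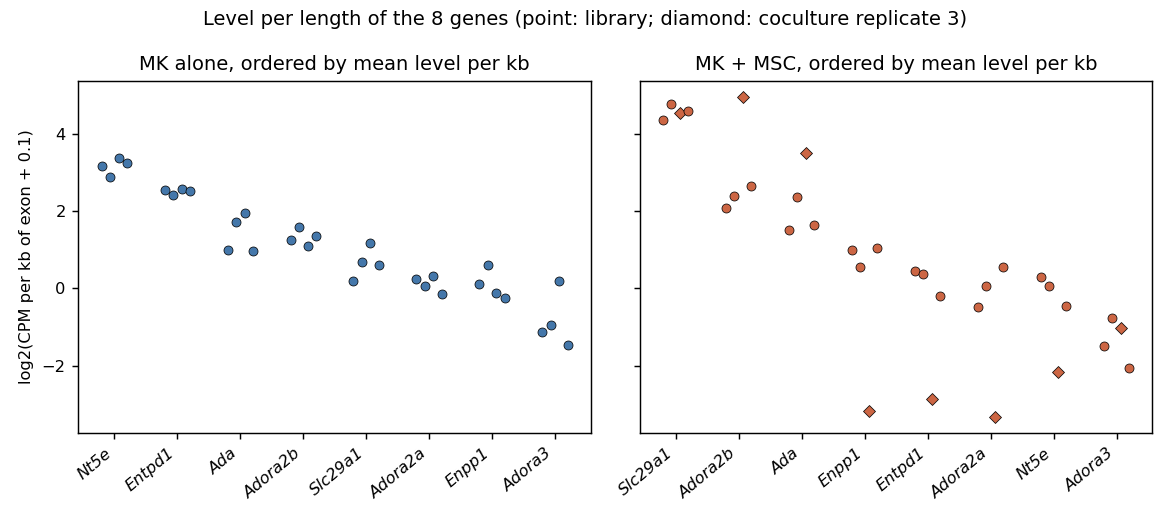
Level per length of the 8 members, as log2(CPM per kb of exon + 0.1), in MKs cultured alone (left) and MSC-MK cocultures (right), ordered by the mean in each group, with 1 point per library and a diamond for coculture replicate 3. Nt5e goes from rank 1 on the left to rank 7 on the right and Slc29a1 from rank 5 to rank 1.

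Ratios of counts within a library do not depend on how libraries were scaled. The ratio of Nt5e to Slc29a1 counts was 18.3, 10.4, 10.2 and 14.1 in MKs cultured alone and 0.118, 0.0742, 0.0113 and 0.0563 in cocultures. The ratio was above 1 in every library of MKs cultured alone and below 1 in every coculture, with no correction for the longer exons of Nt5e. Nt5e to Entpd1 was steadier, at 2.42, 2.13, 2.70 and 2.56 against 1.38, 1.22, 5 and 1.24, where the 5 of coculture replicate 3 rests on 10 and 2 counts. The ratio of Nt5e to Ada was 20.5, 9.74, 11.6 and 21.4 in MKs cultured alone and 1.76, 0.795, 0.0469 and 0.886 in cocultures, without overlap.

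Among the receptors, Adora2b had the largest share per length in every library. Of all receptor counts per kb, Adora2b had 61.3, 68.2, 48.2 and 70.0% in MKs cultured alone (mean 61.9 ± 9.90%) and 82.5, 78.3, 98.7 and 80.5% in cocultures (mean 85.0 ± 9.30%), and the groups did not overlap. Adora2a had 29.1, 22.1, 27.3 and 22.6% against 12.4, 14.2, 0 and 17.6%. Adora3 had 9.57, 9.73, 24.5 and 7.42% against 5.10, 7.43, 1.26 and 1.81%. These shares rest on few reads, between 40 and 101 receptor counts per library of MKs cultured alone and between 93 and 556 per coculture. As a share of the counts themselves, Adora2b had 47.5% (exact 95% binomial interval 31.5 to 63.9%) in replicate 1 of MKs cultured alone, the library with the fewest receptor counts, 33.7% (24.6 to 43.8%) in replicate 3 of MKs cultured alone, where Adora3 had 1 count more, and 71.0% (60.6 to 79.9%) in coculture replicate 4. The closest libraries across the groups were replicate 4 of MKs cultured alone at 57.1% (42.2 to 71.2%) and coculture replicate 2 at 67.0% (57.3 to 75.7%). The intervals of that pair overlapped. Intervals cover counting error only.

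**Figure D4:**
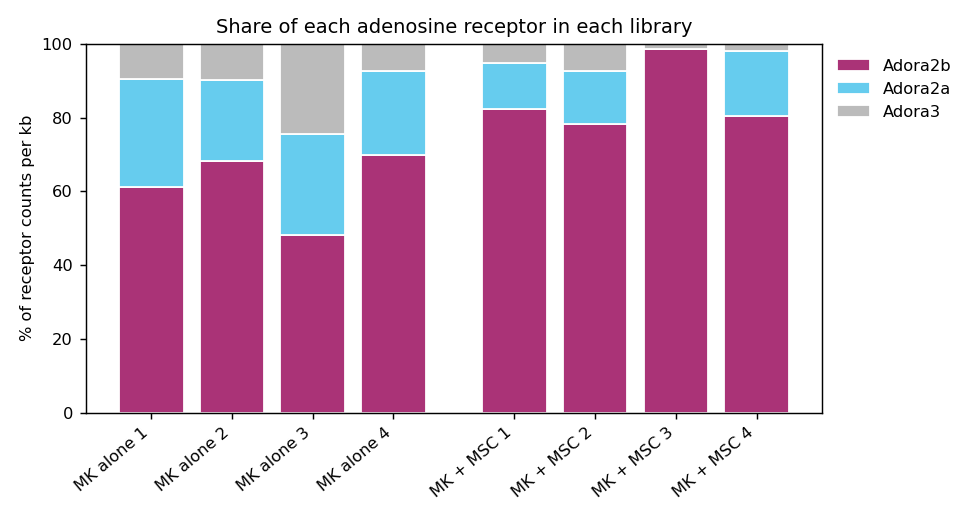
Share of Adora2b, Adora2a and Adora3 among the receptor counts per kb of each library, stacked to 100%. The Adora2b share is 48.2 to 70.0% in the 4 libraries of MKs cultured alone and 78.3 to 98.7% in the 4 cocultures.

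The wider purinergic pathway was followed with a list of 107 genes in 7 roles that did not include the members. Of these, 81 were in the table and 75 passed the filter on low counts. By edgeR's quasi-likelihood test 12 rose (16.0%, against 13.2% of all genes) and 9 fell (12%, against 7.31%), and 54 did not pass. The median log2 fold change over the list was 0.06, against 0.03 over all 11722 genes. Without coculture replicate 3, 15 of 79 rose (20.6% of all genes did) and 21 fell (15.4% of all genes did). The number of genes that fell thus depended on that library.

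Other enzymes that act on extracellular nucleotides held 2 genes that fell among 10 tested. Acpp, which encodes prostatic acid phosphatase, an enzyme that can make adenosine from AMP, fell from 48.3 ± 7.89 to 3.81 ± 2.30 CPM (log2 fold change -3.66, SE 0.68, adjusted p = 0.00515). Entpd5, which encodes a nucleoside diphosphatase of the endoplasmic reticulum, fell from 108.3 ± 16.5 to 42.7 ± 3.22 CPM (-1.34, SE 0.20, adjusted p = 0.00178). Without coculture replicate 3, 5 of 12 fell and 2 rose. Among 6 genes for nucleotide and pyrophosphate release, Gja1 rose. It encodes connexin 43, the gap junction protein whose hemichannels can release ATP, and went from 5.29 ± 2.82 to 172 ± 54.7 CPM (5.04, SE 0.48, adjusted p = 0.000153). Ank, a pyrophosphate exporter and the highest gene of this role by the mean over both groups, had 81.6 ± 3.78 and 117 ± 18.8 CPM and did not pass (0.52, SE 0.19, adjusted p = 0.0790).

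Besides Slc29a1, 2 nucleoside transporters were tested, and 1 of them fell. Slc28a2, a sodium-coupled transporter that concentrates purine nucleosides in the cell, fell from 53.0 ± 5.31 to 7.42 ± 4.85 CPM (-2.84, SE 0.73, adjusted p = 0.0231), a call lost without any 1 of the libraries of MKs cultured alone or coculture replicate 4. Slc29a3, an equilibrative transporter of endosomes and lysosomes, had 28.4 ± 3.04 and 45.0 ± 7.98 CPM and did not pass (0.67, SE 0.26, adjusted p = 0.0974). Whether the transporters differ from each other was not tested. Dpp4, which encodes CD26, the surface protein that binds adenosine deaminase in human cells, fell from 51.2 ± 4.60 to 4.47 ± 2.89 CPM (-3.52, SE 0.78, adjusted p = 0.0124). Adora1, the remaining adenosine receptor gene on the list, had no row in the table analysed, so the receptor shares leave it out.

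Inside the cell, purine salvage genes moved in both directions, with 6 that rose and 3 that fell among 21 tested. Ak1, an adenylate kinase, rose from 12.4 ± 1.36 to 235 ± 104 CPM (4.24, SE 0.34, adjusted p = 6.57e-05). Mtap, which recovers adenine from methylthioadenosine, rose from 18.8 ± 1.57 to 98.2 ± 17.7 CPM (2.39, SE 0.23, adjusted p = 0.000161). Ahcyl1, a relative of adenosylhomocysteinase, rose from 80.6 ± 10.5 to 299 ± 71.3 CPM (1.89, SE 0.22, adjusted p = 0.000392). Nt5c, a cytosolic nucleotidase, had 18.1 ± 5.21 and 73.9 ± 74.6 CPM, and its log2 fold change of 2.03 (SE 0.63, adjusted p = 0.0468) became 0.99 without coculture replicate 3 and no longer met the cutoffs. That call was also lost without any 1 of the libraries of MKs cultured alone or coculture replicate 4. Aprt and Ampd3 were the others that rose, and both were named after their values were seen. Without coculture replicate 3, Ampd3 (log2 fold change 0.98) no longer met the cutoffs either, and 4 of 21 genes of this role rose and 3 fell. Gda, guanine deaminase, fell from 473 ± 82.5 to 63.7 ± 12.7 CPM (-2.89, SE 0.22, adjusted p = 5.05e-05). The cytosolic nucleotidases Nt5c2 (137 ± 11.2 to 36.8 ± 19.0 CPM, -1.89, SE 0.45, adjusted p = 0.0170) and Nt5c3 (409 ± 51.2 to 191 ± 15.2 CPM, -1.10, SE 0.17, adjusted p = 0.00186) also fell.

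The role of P2 receptors, made of genes with P2rx or P2ry symbols (P2ry10 among them), held 1 call among 10 tested. P2ry6, a UDP receptor, rose from 2.04 ± 0.873 to 27.0 ± 12.8 CPM (3.70, SE 0.59, adjusted p = 0.00234). P2ry1, the platelet ADP receptor that drives shape change and the highest gene of this role by the mean over both groups, had 146 ± 23.8 CPM in MKs cultured alone and 37.0 ± 24.7 CPM in cocultures and did not pass (-1.98, SE 1.07, adjusted p = 0.221). Its groups did not overlap, and it was called lower without coculture replicate 3 (-1.58, adjusted p = 1.59e-06), where it was listed at 0. Without that replicate, 5 of 10 genes of this role fell.

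The cAMP arm that the A2a and A2b receptors use held 4 genes that rose and 2 that fell among 25 tested. Those that rose were Prkar1b (0.457 ± 0.218 to 16.1 ± 5.68 CPM, 5.04, SE 0.63, adjusted p = 0.000600) and Prkar2a (27.4 ± 3.76 to 65.9 ± 12 CPM, 1.27, SE 0.25, adjusted p = 0.00689), both regulatory subunits of protein kinase A. Prkaca, its catalytic subunit, rose from 25.0 ± 4.37 to 77.2 ± 51.6 CPM (1.62, SE 0.43, adjusted p = 0.0274). Gnas, the stimulatory G protein, rose from 133 ± 33.9 to 389 ± 221 CPM (1.55, SE 0.38, adjusted p = 0.0200). The calls for Prkaca and Gnas were lost without any 1 of the libraries of MKs cultured alone. Creb1, a transcription factor that protein kinase A phosphorylates, fell from 159 ± 44.2 to 41.7 ± 24.4 CPM (-1.93, SE 0.58, adjusted p = 0.0438), a call that held without coculture replicate 3 and was lost without any 1 of the other 7 libraries. Gnai3, an inhibitory G protein, fell from 704 ± 162 to 300.1 ± 100.2 CPM (-1.23, SE 0.30, adjusted p = 0.0177), lost without replicate 1 of MKs cultured alone. Prkar1a, the highest gene of the arm by the mean over both groups, had 718 ± 32.8 and 850 ± 108 CPM and did not pass (0.24, SE 0.16, adjusted p = 0.323).

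**Figure D5:**
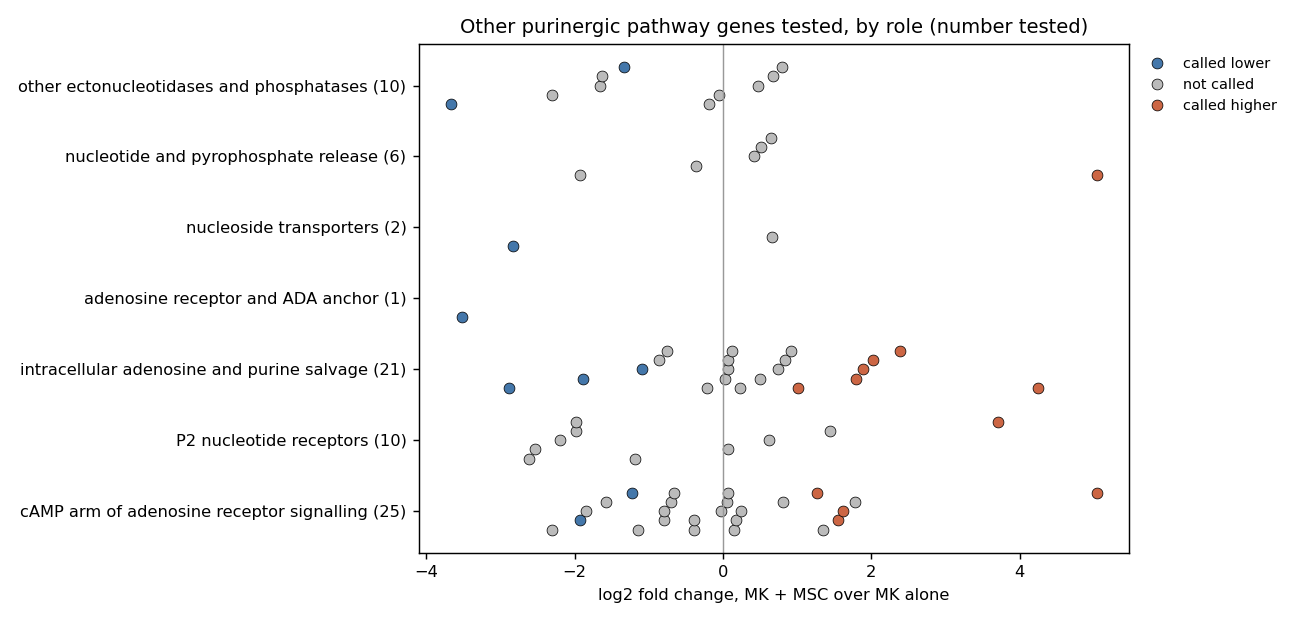
Log2 fold change, MSC-MK coculture over MKs cultured alone, of the 75 tested genes of the wider purinergic pathway, with 1 point per gene in 7 roles and the number tested in parentheses. Orange points were called higher (12), blue points lower (9) and grey points were not called (54), and calls in both directions stand within purine salvage (6 and 3) and the cAMP arm (4 and 2).

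Markers of other cells moved with the groups, and in bulk libraries fewer cells of a type and less RNA per cell cannot be told apart. The 11 neutrophil markers summed to 84606 to 86382 CPM in MKs cultured alone and 4303 to 10218 CPM in cocultures, and all 11 fell, with S100a8, a calcium-binding protein of neutrophils, at 48457 ± 4890 and 4404 ± 1966 CPM. Eosinophil markers summed to 1143 to 1859 against 13.5 to 70.1 CPM (8 of 9 fell, Prg2 the highest), and mast cell and basophil markers to 1132 to 1231 against 148 to 231 CPM (6 of 7 fell), with the mast cell protease Cpa3 at 396 ± 53.6 and 20.7 ± 12.9 CPM. B cell markers summed to 886 to 946 against 91.1 to 236 CPM (4 of 9 fell, Ms4a1 the highest), and T and NK cell markers to 201 to 277 against 74.4 to 126 CPM (4 of 7 fell, Nkg7 the highest). These lists moved in the direction of Entpd1 and Nt5e, and their part in those differences was not tested.

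In the direction of Slc29a1, MSC markers summed to 231 to 263 CPM in MKs cultured alone and 1265 to 4264 CPM in cocultures. The sum in MKs cultured alone includes Nt5e itself (62.3 to 87.8 CPM) and Itgav (28.3 to 54.7 CPM). Col1a1, Col3a1 and Pdgfra each had at most 0.662 CPM there. Vcam1 is on both this list and the macrophage list. Of 10 MSC markers tested, 7 rose, and the 1 past the cutoffs as lower was Nt5e. Sparc, a matrix protein and the highest of this list, went from 0.548 ± 0.433 to 963 ± 361 CPM. Macrophage markers summed to 261 to 329 against 1116 to 1345 CPM, and 8 of 10 rose, with the CSF1 receptor gene Csf1r at 105 ± 26.4 and 263 ± 79.5 CPM. Erythroid markers, led by Hbb-bs, summed to 38.8 to 62.8 against 19.6 to 93.8 CPM, and endothelial markers, led by Tek, to 55.3 to 60.4 against 13.3 to 25.4 CPM. Every measured marker on these lists had a count in at least 1 library of each group. The part of MSC or macrophage RNA in the level of Slc29a1 and Adora2b was not tested.

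For each member that passed the filter, the closest profiles over the 8 libraries were sought among 9624 genes with a mean of at least 10 CPM in a group, as the root mean square difference between centred log2(CPM + 1) values. Entpd1 and Nt5e were the closest pair of members at 0.455, ahead of Ada and Adora2b at 0.612, and Nt5e and Slc29a1 were the farthest apart at 3.80. Closest to Entpd1 were Tsga10 (0.146), Cd24a (0.165) and Dhrs7 (0.184), and closest to Nt5e were Cd96 (0.189), Prss57 (0.214) and 9830107B12Rik (0.232). Slc29a1 was closest to the laminin gene Lamc1 (0.177), the caveolar gene Cavin3 (0.198) and B4galt2 (0.204). Adora2b was closest to Rpl38 (0.112), Emc9 (0.141) and Chmp6 (0.147), and Ada to Cdk2ap1 (0.133), Gemin7 (0.165) and Nmral1 (0.168). Enpp1 was closest to Serpina3f (0.068), Qsox2 (0.192) and Nr2c1 (0.210), and Adora2a to Scfd2 (0.191), Grpel2 (0.225) and Snrnp40 (0.229). Lamc1 stood at 2.52 CPM in MKs cultured alone and 55.2 CPM in cocultures, and Cd96, a receptor of T and NK cells, at 42.0 and 2.67 CPM. With a pseudocount of 0.5 CPM in place of 1, all 3 nearest genes were shared for Ada and Adora2b, 2 of 3 for Nt5e, Enpp1 and Slc29a1, and 1 of 3 for Entpd1 and Adora2a. These likenesses share the libraries, their depth and the 4-against-4 grouping, so they are a description. Coculture replicate 3 counts in every distance, and Ada (22.3 CPM) and Adora2b (56.7 CPM) were both highest there.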

How the data were processed

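For the 8 libraries, cDNA was made from small amounts of RNA (SMART-Seq HT) and sequenced in read pairs. Per the methods and the submitters' processing notes, the authors filtered reads with fastp, quantified them with kallisto on mm10 and deposited whole-number counts per gene without normalization. How transcripts were summed and rounded, and whether strand was used, is not given in the sources used here. The lowest gene total was 11 counts.

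Groups were compared in R 4.3.3 by edgeR 4.0.16 (TMM factors, filterByExpr, robust quasi-likelihood F test, Benjamini-Hochberg adjustment over 11722 genes), with no covariate, since the batch in the authors' design is not named. DESeq2 1.42.0, other scalings, no filter, a replicate block and leaving out each library were alternatives. In each call, called higher or lower means past all of the cutoffs given in the text. Members and lists were chosen with earlier results of these data known. Named genes were the members, up to 4 called genes per role and direction, the highest gene of each role and marker list, Adora1, and 3 nearest profiles per member. Gene models were GENCODE vM21 and promoters RefSeq. The steps were tested on simulated data with 8-fold changes in 200 genes, where edgeR called all 200 and 2 others. The simulated spread was estimated without coculture replicate 3, so calls that hinge on that library were not covered. Python 3.11 was used for ratios, exact binomial intervals and profiles.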

Additional observations from a re-analysis of the deposited data

Results flagged for a closer look

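Within each group of 4 libraries, the highest and lowest log2(CPM + 1) were set against the others for the members and the marker sums, and 4 of 36 groups held a value that stood apart, where chance gives about 1.8 (1 in 20). All 4 were in coculture replicate 3. Enpp1 had 0.14 there, against 3.91 to 4.41 in the other cocultures. The neutrophil marker sum was 12.1, against 13.2 to 13.3, and the B cell marker sum was 6.53, against 7.70 to 7.89. The erythroid marker sum was 6.57, against 4.37 to 4.56. The gap of Adora2b in the same library (56.7 CPM against 7.58 to 11.4) did not stand apart by this measure on the log scale.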

How the results depend on the processing

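No alternative changed the direction of Entpd1, Nt5e, Slc29a1, Ada, Adora2a or Adora2b, and Adora3 kept it with no filter and in the 6 fits with a library left out that it entered. Enpp1 turned from 0.39 to -0.22 with the replicate block. Leaving out single libraries gave log2 fold changes of -3.06 to -2.37 for Entpd1, -3.99 to -3.31 for Nt5e, 0.16 to 0.78 for Enpp1, 0.39 to 1.28 for Ada, -0.91 to -0.08 for Adora2a, 1.05 to 2.55 for Adora2b, -0.93 to -0.42 for Adora3 (6 fits) and 3.79 to 4.14 for Slc29a1. Members past the cutoffs as higher numbered 2 (Slc29a1 and Adora2b) in place of 1 with library size only and with scaling to MK and platelet markers, and 1 to 2 with single libraries left out. Members past them as lower numbered 1 (Nt5e, without Entpd1) in place of 2 with library size only, with marker scaling and with the replicate block, and 1 to 2 with single libraries left out. Pathway genes that rose numbered 9 to 15, and those that fell 6 to 21, with single libraries left out. The cause was not tested, apart from coculture replicate 3, which alone gave the 21. With the replicate block 5 pathway genes fell in place of 9, and the calls for Dpp4, Nt5c2, Slc28a2, Prkaca, Creb1 and Nt5c were lost. Whether the numbers pair the samples was not settled. Correlations of same-numbered libraries were 0.37, 0.02, 0.15 and 0.03, and not every library was closest to its own number. With so few libraries per group, and coculture replicate 3 standing apart, these correlations cannot decide it. DESeq2 called 12 higher and 12 lower. Over all genes, the median log2 fold change was 0.03 as reported, 0.02 with RLE factors or DESeq2, 0.06 with library size only, 0.11 with marker scaling, 0.10 with no filter and -0.14 with the replicate block, and 0.01 to 0.13 with single libraries left out. Receptor genes are limited by depth, since 3 counts are up to 0.662 CPM.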
